A study of Mus musculus with 6 samples.

Results

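De novo nucleotide synthesis builds purines and pyrimidines from small precursors, and 10 mouse genes of these pathways were followed here: Cad, Dhodh, Umps and Ctps of pyrimidine synthesis, and Ppat, Gart, Paics, Atic, Gmps and Impdh2 of purine synthesis. They were chosen by name, with earlier results of this same comparison known, so their differences and calls are given as a description and support nothing about the pathway. Every probe set that the platform annotation assigns to exactly 1 of these genes was taken. This gave 25 of the 45101 probe sets on the array and covered 9 of the 10 genes. Impdh2, which converts IMP towards GMP, was not analysed here, since no probe set carried its name alone.

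Levels were measured on 6 Affymetrix whole-genome mouse arrays of jejunum, the stretch of small intestine between duodenum and ileum, 1 array per male C57BL/6 mouse. Wild type mice 1, 3 and 4 were compared with mice 1, 2 and 3 of the TIS7 SKMc15 double knock out, which lack the transcriptional regulators encoded by Ifrd1 (also called TIS7) and Ifrd2 (also called SKMc15). All mice, 7 to 10 weeks old and caged singly, received the same diet of saturated fat (42% of kcal from milk fat, 0.2% from cholesterol). RNA came from animals fed it for 3 weeks per the extraction protocol, while the growth protocol gives 3 up to 8 weeks. The labels do not describe the alleles, so which exons were removed is not given in the sources used here. Values are log2 levels made by GCRMA. The 18013 probe sets above 4 on at least 3 arrays were tested with limma, double knockout minus wild type, and called at a Benjamini-Hochberg adjusted p of at most 0.05 over all of them. The targeted transcripts followed the labels: Ifrd1 lay between 9.84 and 10.0 in wild type and between 4.80 and 6.27 in double knockout mice, and Ifrd2 between 8.20 and 8.61 and between 2.59 and 2.74. Enterocyte markers were present: all 13 with a probe set were bright enough to test.

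Pyrimidine synthesis starts in the cytosol with the multifunctional enzyme Cad, passes through the mitochondrial enzyme Dhodh, returns to the cytosol at Umps and ends with the CTP synthase Ctps. Purine synthesis assembles the ring on a ribose phosphate, starting with Ppat at its committed step. Gart, Pfas, Paics and Adsl act before Atic, which closes the ring to IMP. Gmps and Impdh2 then lead to GMP. Dividing cells depend on these routes for RNA and DNA, and the crypts of the small intestine hold a steadily dividing population, while the villus enterocytes have left the cell cycle.

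Of the 25 probe sets, 16 were bright enough to test, covering all 9 measured genes. Of these 16, 6 were called higher in double knockout jejunum and 0 lower, against a background of 2.54% of all tested probe sets called higher and 1.93% called lower (4.47% in either direction). The 6 calls fell on Cad (both of its tested probe sets), Ctps, Gart, Gmps and Atic, with rises of 1.53-fold to 2.22-fold. At an unadjusted limma p under 0.05, 11 of the 16 were higher and 0 lower, against 15.3% and 11.8% of all tested probe sets. Taking the brightest probe set of each gene, all 9 differences were positive with a median of 0.71 on the log2 scale, while the median over all tested probe sets was 0.03. The 3 double knockout values lay above all 3 wild type values on 10 of the 16 probe sets, which was so for 19.5% of all tested probe sets, and below them on 0, against 14.8%. A probe set of Umps, 1 of the 16, was above the minimum only in the double knockout mice and so had to differ in order to be tested. Its lack of overlap was fixed by the filter, yet it is counted in the 10 here and in the 11 above.

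The number of calls rested on all mice. It was 0, 0 and 1 without wild type mouse 1, 3 and 4, and 2, 3 and 0 without double knockout mouse 1, 2 and 3. The share of all tested probe sets called higher also fell from 2.54%. In the same order it was 0.15%, 0.144% and 0.0611%, and 0.572%, 1.09% and 0.122%. The median difference stayed between 0.62 and 0.77. The 3′ to 5′ difference of the actin and Gapdh control probe sets, a measure of RNA quality, was 0.35, 0.49 and 0.36 in wild type mice 1, 3 and 4 and 0.60, 0.41 and 0.61 in double knockout mice 1, 2 and 3. With it as a covariate, limma called 0 of the 16 probe sets, where 0.0278% of all tested probe sets were called higher. At an unadjusted p under 0.05, 8 of the 16 were higher and 0 lower in that fit, against 9.02% and 6.62% of all, and the median difference was 0.63.

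**Figure D1:**
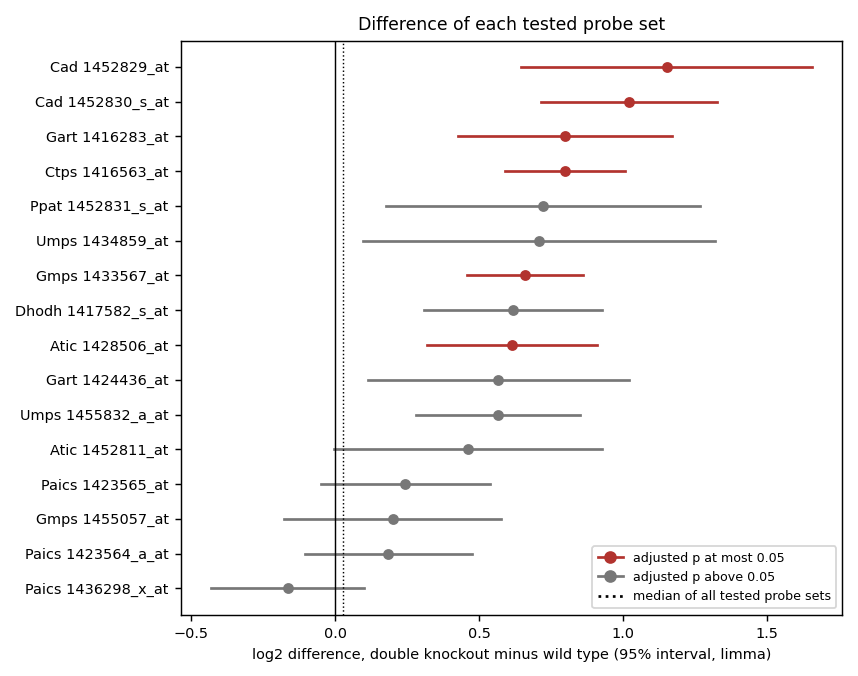
Log2 difference, double knockout minus wild type, of each of the 16 tested probe sets with its 95% interval from limma (3 mice per group); red marks an adjusted p of at most 0.05 and the dotted line the median of all tested probe sets. Both Cad probe sets lie near or above 1, and the 3 Paics probe sets have intervals that include 0.

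The bases before the transcription start are shown for 4 of the genes whose windows hold a motif named below. They are read 5′ to 3′ on the strand of the gene from RefSeq promoter windows of build GRCm38.p6. Whole windows of 250 bases are given for Atic (chr1:71556906-71557155, plus strand) and Ctps (chr4:120570277-120570526, minus strand), where the gene table places no transcribed gene. For Cad (chr5:31054724-31054750, plus strand) and Paics (chr5:76951087-76951116, plus strand), whose windows overlap annotated genes, only the stretch around the match is given. Capitals mark matches on either strand to the GC box GGGCGG, the E-box CACGTG or the NF-Y motif CCAAT.
Atic: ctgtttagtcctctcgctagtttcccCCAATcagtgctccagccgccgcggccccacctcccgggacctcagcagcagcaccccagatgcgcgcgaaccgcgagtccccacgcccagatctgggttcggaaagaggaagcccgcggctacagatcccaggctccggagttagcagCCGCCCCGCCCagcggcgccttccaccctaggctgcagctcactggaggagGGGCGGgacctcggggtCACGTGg
Ctps: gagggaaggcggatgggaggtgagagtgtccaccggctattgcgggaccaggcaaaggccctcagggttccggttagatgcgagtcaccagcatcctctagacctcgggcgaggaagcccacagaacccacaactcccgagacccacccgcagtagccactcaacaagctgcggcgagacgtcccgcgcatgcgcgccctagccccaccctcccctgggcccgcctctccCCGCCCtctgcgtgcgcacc
Cad: CCGCCCctgacgtgcccggccCCGCCC
Paics: cgcctcggaaagCACGTGgagggacctgct

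The Cad stretch runs from base 56 to base 30 before the start and holds a pair of GC boxes, and a pair of such boxes overlaps by 1 base in the Atic window. The Atic E-box ends 2 bases before the start, and that of Paics lies from base 203 to base 198 before it. Promoter windows were given for 9 of the 10 genes (10 windows, with a pair for Ctps and none for Dhodh). A GC box was found in 9 of the 10 windows, against 32.7% of all 32851 windows of the same length, and the E-box in 3 (Atic, Paics and Impdh2), against 6.02%. The NF-Y motif was in 3 windows (Atic, Paics and Gart), against 33.8%, and neither the C/EBP-ATF motif TGATGNAA (3.45% of all windows) nor the E2F motif TTTNGCGC (1.13%) was in any. The windows of these genes were rich in G and C, with a median of 63.0% against 52.4% in all windows, and the motif shares were not adjusted for that. A match is a description of the letters and not of binding.

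Among the pyrimidine enzymes, Cad differed most. On its brighter tested probe set (1452830_s_at), Cad read 6.12, 6.22 and 6.54 in wild type mice 1, 3 and 4 and 7.38, 7.23 and 7.33 in double knockout mice 1, 2 and 3. The groups did not overlap, and the lowest double knockout value was 0.69 above the highest wild type value. The mean rose from 6.29 ± 0.22 (SD, n = 3) to 7.31 ± 0.07 (SD, n = 3), a log2 difference of 1.02 ± 0.13 (SE). The dimmer probe set (1452829_at) read 4.56, 4.88 and 4.53 in wild type and 5.41, 6.20 and 5.80 in double knockout mice, a difference of 1.15 ± 0.21 (SE). Its double knockout values were more spread (SD 0.40 against 0.19 in wild type), with mouse 2 highest. The remaining Cad probe set (1440857_at) reached at most 1.91 on the 6 arrays and was not tested.

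Ctps, which turns UTP into CTP and was measured by 1 probe set (1416563_at), had the smallest spread relative to its change among the called genes. It read 6.46, 6.49 and 6.57 in wild type and 7.24, 7.26 and 7.41 in double knockout mice. The groups were 0.67 apart at their nearest values. The difference was 0.80 ± 0.09 (SE), a rise of 1.74-fold, and the Ctps call had the lowest adjusted p among the genes followed here, 0.0151 by limma.

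Dhodh and Umps, the steps between Cad and Ctps, were not called. Dhodh, which oxidises dihydroorotate on the inner mitochondrial membrane, read 4.56, 4.57 and 4.89 in wild type and 5.46, 5.16 and 5.27 in double knockout mice on its tested probe set (1417582_s_at). The groups did not overlap, and the difference was 0.62 ± 0.13 (SE), with an adjusted p of 0.0508 by limma, just outside the threshold. A second Dhodh probe set (1417581_at) ran between 2.78 and 3.07 in wild type and between 3.28 and 3.48 in double knockout mice, under the minimum in both groups.

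Umps, whose enzyme completes UMP, varied most within the wild type group. Its brightest probe set (1434859_at) read 5.29, 4.65 and 4.28 in wild type mice 1, 3 and 4 and 5.21, 5.56 and 5.55 in double knockout mice 1, 2 and 3. Wild type mouse 1 lay above double knockout mouse 1, so the groups overlapped. The difference of 0.71 ± 0.26 (SE) had a 95% interval of 0.10 to 1.32 and was not called (adjusted p = 0.143 by limma). The Umps probe set that passed the filter only in double knockout mice (1455832_a_at) read 3.79, 3.83 and 3.80 in wild type, under the minimum of 4. It read 4.21, 4.61 and 4.30 in double knockout mice, a difference of 0.56 ± 0.12 (SE) with an adjusted p of 0.0521 by limma. That p-value carries no weight, since the filter itself required the groups to be apart. The other Umps probe sets (1431652_at and 1451445_at) reached at most 2.43.

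**Figure D2:**
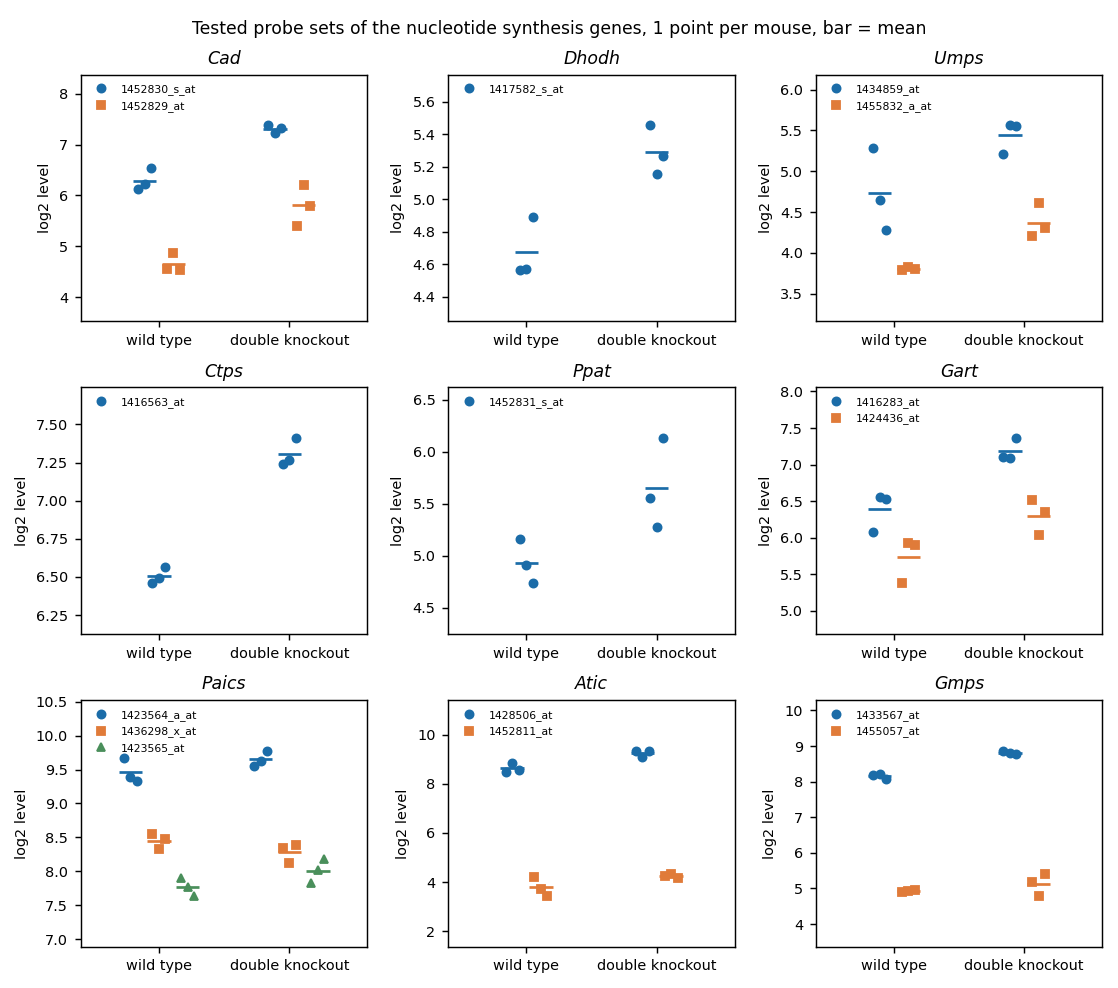
Log2 level (vertical axis, its own range in each panel) of the 16 tested probe sets of 9 genes in wild type and double knockout jejunum, 1 point per mouse and a bar at the mean of 3 mice; colours and marker shapes separate the probe sets of a gene. The groups are apart for Cad and Ctps, and they overlap on all 3 Paics probe sets and on the brightest Umps probe set.

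Of the purine enzymes, Ppat, which catalyses the committed step, read 5.16, 4.91 and 4.73 in wild type and 5.55, 5.28 and 6.13 in double knockout mice on its tested probe set (1452831_s_at). The groups lay 0.12 apart at their nearest values, and double knockout mouse 3 stood well above the other two. The difference was 0.72 ± 0.23 (SE) and was not called (adjusted p = 0.110 by limma). The remaining Ppat probe sets (1428543_at and 1441770_at) reached at most 2.90.

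Gart, whose enzyme carries several steps of ring assembly, was called on its brightest probe set. That probe set (1416283_at) read 6.08, 6.56 and 6.53 in wild type and 7.10, 7.10 and 7.36 in double knockout mice, a difference of 0.80 ± 0.16 (SE) and a rise of 1.74-fold. Wild type mouse 1 was the lowest, and the nearest values of the groups were 0.54 apart. A second tested Gart probe set (1424436_at) read 5.38, 5.93 and 5.90 in wild type and 6.51, 6.04 and 6.35 in double knockout mice, again without overlap. Its difference of 0.57 ± 0.19 (SE) was not called. The Gart probe sets 1424435_a_at and 1441911_x_at stayed under the minimum, with values up to 3.56.

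Paics, a bifunctional enzyme of ring assembly, was not called on any of its 3 tested probe sets. The brightest (1423564_a_at) read 9.67, 9.39 and 9.32 in wild type and 9.55, 9.63 and 9.77 in double knockout mice, a difference of 0.18 ± 0.12 (SE) with a 95% interval of -0.11 to 0.48. The other Paics probe sets, 1423565_at and 1436298_x_at, differed by 0.24 ± 0.12 (SE) and by -0.17 ± 0.11 (SE), the only negative difference among the 16. The groups overlapped on all 3, and the upper ends of the intervals were 0.48, 0.54 and 0.099, below the 0.61 of the smallest called difference. That of the uncalled Gmps probe set 1455057_at, 0.58, was below it too. Whether Paics differed from the other genes was not tested. Paics and Ppat lie on opposite strands with starts 276 bases apart in the RefSeq table, and each window before the start runs into the other gene.

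Atic and Gmps, at the end of the route, were each called on the brightest probe set. Atic (1428506_at) read 8.49, 8.83 and 8.57 in wild type and 9.32, 9.09 and 9.33 in double knockout mice. The groups were 0.25 apart at their nearest values, and the difference of 0.61 ± 0.12 (SE) lay just inside the threshold (adjusted p = 0.0479 by limma). Its dimmer probe set (1452811_at) overlapped between the groups, with 4.22, 3.72 and 3.43 in wild type and 4.24, 4.34 and 4.18 in double knockout mice.

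Gmps, which makes GMP from XMP, had close values within each group. Its brightest probe set (1433567_at) read 8.18, 8.21 and 8.06 in wild type and 8.86, 8.80 and 8.77 in double knockout mice. The mean rose from 8.15 ± 0.08 (SD, n = 3) to 8.81 ± 0.05 (SD, n = 3), a difference of 0.66 ± 0.08 (SE) with 0.56 between the nearest values. The dimmer tested Gmps probe set (1455057_at) did not follow: it read 4.90, 4.94 and 4.94 in wild type and 5.19, 4.79 and 5.40 in double knockout mice, with mouse 2 below all wild type mice and a difference of 0.20 ± 0.16 (SE). That difference turned to -0.055 with the 3′ to 5′ covariate. The remaining Gmps probe set (1435656_at) stayed between 3.45 and 3.81 and was not tested.

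The highest values fell more often on double knockout mice 3 and 1 than on mouse 2. Among the brightest probe sets of the 9 genes, double knockout mouse 3 was highest of all mice for 5, mouse 1 for 3 and mouse 2 for 1. The lowest value was that of wild type mouse 1 for 5 genes and of wild type mouse 4 for the other 4. Double knockout mice 3 and 1 also had the largest 3′ to 5′ differences (0.61 and 0.60, against 0.41 in mouse 2). Wild type mice 1 and 4 had the smallest (0.35 and 0.36, against 0.49 in mouse 3). The part of RNA quality in this order was not tested. Across the 16 tested probe sets, the SD ranged from 0.02 to 0.51 in wild type and from 0.05 to 0.43 in double knockout mice.

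Other genes of nucleotide metabolism were listed by function. Of 81 symbols in 6 lists, 54 had a tested probe set, and with the brightest of each, 3 genes rose, 1 fell and 50 were not called, where 2.54% of all tested probe sets were called higher and 1.93% lower. At an unadjusted limma p under 0.05, 15.3% of all tested probe sets were higher and 11.8% lower. Counted by any of its tested probe sets, 5 genes rose and 3 fell. In the rest of purine synthesis, Pfas, an amidotransferase of ring assembly, was the 1 called gene of 7. It read 6.32, 6.46 and 6.35 in wild type and 6.99, 6.89 and 7.06 in double knockout mice, a difference of 0.61 ± 0.09 (SE, adjusted p = 0.0259 by limma). The list median was 0.06, and the differences of its 7 genes ran from -0.22 to 0.61. Limma called 0 of the 9 tested genes of CTP synthase 2 and the nucleotide kinases, where 2 were higher and 1 lower at an unadjusted p under 0.05 (list median -0.06). Its smallest p-values were those of Nme1 and Nme7, of the nucleoside diphosphate kinase family, at 0.36 ± 0.10 and -0.42 ± 0.13 (SE). A dimmer Nme1 probe set was called higher, at 0.59 ± 0.10 (SE, adjusted p = 0.0308 by limma).

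Deoxynucleotide synthesis, which supplies DNA replication, had a median of 0.40 over 7 tested genes. Rrm1, the large subunit of ribonucleotide reductase, rose by 0.43 ± 0.09 (SE, adjusted p = 0.0454 by limma), and 0 genes fell; at an unadjusted p under 0.05, 4 were higher and 0 lower. Rrm2, its small subunit, is named after its values were seen: its brightest probe set (1434437_x_at) was not called at 0.57 ± 0.13 (SE), but 1416120_at and 1448226_at were, at 0.97 ± 0.11 and 0.78 ± 0.13 (SE, limma adjusted p 0.0156 and 0.0306).

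In nucleoside salvage, which recycles bases and nucleosides, Uck2, the uridine-cytidine kinase, was the 1 called gene of 13, at 0.47 ± 0.08 (SE, adjusted p = 0.0385 by limma). The list median was 0.03, and 2 genes were higher and 1 lower at an unadjusted limma p under 0.05. Differences ran from -0.41 ± 0.13 for Cda to 0.91 ± 0.22 (SE) for Tk1, both without overlap and not called. Cda and Tk1 are named after their values were seen. Of the 4 tested Uck2 probe sets, 1448604_at (0.78 ± 0.16) and 1426909_at (0.46 ± 0.11, SE) were higher without overlap but not called. The probe set 1457980_x_at stood at -0.0046 ± 0.094 (SE).

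Of 16 tested genes of nucleotide breakdown, 1 fell and 0 rose by limma (at an unadjusted p under 0.05, 2 lower and 1 higher), with a median of -0.05. The fall was that of Upb1, which acts at the end of pyrimidine base breakdown. Upb1 read 7.59, 7.84 and 8.00 in wild type and 6.31, 6.45 and 6.96 in double knockout mice, a difference of -1.24 ± 0.19 (SE, adjusted p = 0.0282 by limma). Dpyd, the enzyme at the start of the same route and named after its values were seen, was called lower on 1 of 2 probe sets (1427945_at, -0.49 ± 0.09, adjusted p = 0.0368 by limma) and stood at -0.38 ± 0.10 on the brighter one. Both tested nucleoside transporters, Slc28a3 and Slc29a3, were not called, at -0.24 ± 0.19 and 0.04 ± 0.10 (SE), and limma found 0 of them past an unadjusted p of 0.05.

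**Figure D3:**
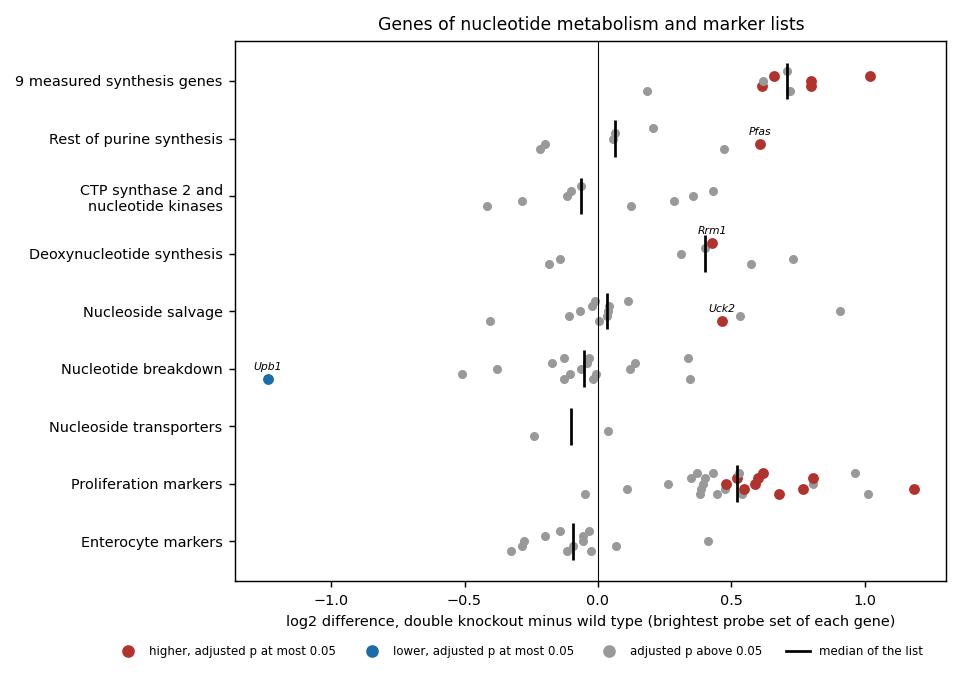
Log2 difference, double knockout minus wild type, of the brightest probe set of each tested gene (1 point per gene; black bars are list medians; red and blue mark limma adjusted p of at most 0.05, higher and lower). The synthesis genes have a median of 0.71 and proliferation markers one of 0.52, while the medians of the salvage and breakdown lists sit near 0.

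Proliferation markers moved in the same direction as the nucleotide synthesis genes. Of all tested probe sets, 2.54% were called higher and 1.93% lower, and 15.3% and 11.8% were so at an unadjusted limma p under 0.05. Of 27 tested proliferation markers, 10 rose and 0 fell by limma (23 higher and 0 lower at an unadjusted p under 0.05), with a median of 0.52. Their summed level on the log2 scale ran from 13.2 to 13.3 in wild type and from 13.7 to 13.8 in double knockout mice, and that of the 9 measured synthesis genes from 10.7 to 10.8 and from 11.2 to 11.3. Crypt stem cell markers overlapped between the groups in their summed level (12.1 to 12.5 and 12.4 to 12.6). That sum mostly reflects Olfm4, the brightest at 11.9 in wild type, against 8.88 for Smoc2, the next. Limma called 0 of 9 (3 higher and 1 lower at an unadjusted p under 0.05). Differences were positive for 8 of 9 (median 0.19). Without overlap, 3 were higher and 1 lower, against 19.5% and 14.8% of all tested probe sets. For enterocyte markers, limma called 0 of 13 (0 higher and 3 lower at an unadjusted p under 0.05). Their differences ran from -0.33 to 0.41 with a median of -0.09, and their summed level was 17.2 in each wild type mouse and 17.0 to 17.1 in double knockout mice. For 9 of the 13, all 3 double knockout values lay below all 3 wild type values, against 14.8% of all tested probe sets. For 0 they lay above, against 19.5%. Fibroblast and matrix markers had positive differences for 11 of 11 tested genes (median 0.48), with overlapping summed levels (12.1 to 12.8 and 12.7 to 13.2) and 0 called by limma (3 higher and 0 lower at an unadjusted p under 0.05). Paneth, goblet, lymphocyte and macrophage markers overlapped in their summed levels too, and limma called 0 of 5, 9, 4 and 6 tested genes, with 0, 0, 0 and 1 higher and 0, 1, 0 and 0 lower at an unadjusted p under 0.05. The part of these cell types in the differences of the synthesis genes was not tested. In RNA from whole tissue, more cells of a type and more RNA per cell cannot be told apart.

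The brightest probe sets of the 5 called genes kept a positive difference in all 16 fits (the reported one and its alternatives, among them leaving out each mouse), but not their calls. The difference of the brighter Cad probe set (1452830_s_at) ran from 0.93 to 1.18, that of Ctps from 0.75 to 0.85, that of Gmps (1433567_at) from 0.61 to 0.69, that of Gart (1416283_at) from 0.63 to 0.91 and that of Atic (1428506_at) from 0.40 to 0.71. They were called in 10, 10, 9, 7 and 6 of the 16 fits. These genes were called on the same arrays, so an equal direction is no measure of stability.

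**Figure D4:**
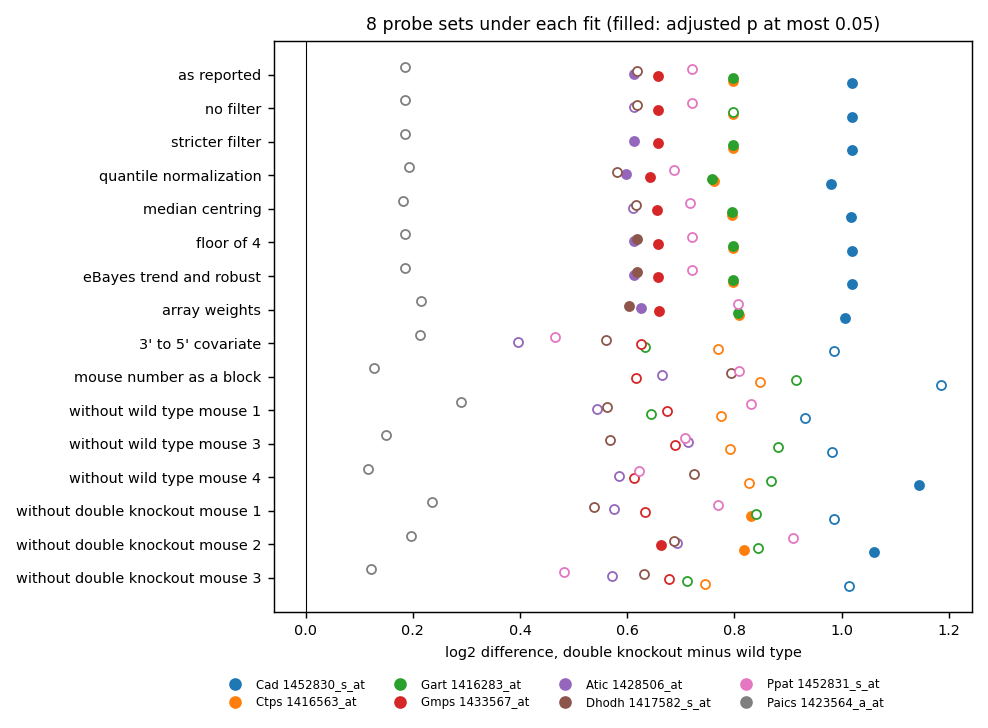
Log2 difference, double knockout minus wild type (horizontal axis), of 8 probe sets under each of 16 fits (rows, the reported one on top); filled points have a limma adjusted p of at most 0.05. Shown are the brightest probe sets of the measured genes except Umps. All points shown stay above 0, and none is filled with the 3′ to 5′ covariate or with the mouse number as a block. Of the probe sets not shown, Paics 1436298_x_at ran from -0.23 to -0.07, and Gmps 1455057_at was -0.055 with the covariate.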

How the data were processed

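Jejunal RNA (500 ng per mouse, biotin label) was hybridised to 1 array per mouse. The deposited values are log2 levels per probe set, which the authors computed by GCRMA (version 2.18.0, per the submitters' processing notes) with settings not given in the sources used here; the log2 scale was read from the values. GCRMA models background from probe sequence, so low levels hold little information. Of 45101 probe sets, 34958 had 1 gene symbol, and 64 controls were left out. Those above 4 on at least 3 arrays (18013) were fitted with limma 3.58.1 in R 4.3.3 (lmFit, eBayes, two-sided, no covariate, Benjamini-Hochberg, threshold 0.05), after tests on simulated data. Precision is limited by the number of arrays. Mice of 1 group were not duplicates, since every pair was over 0.1 apart on 62.5% or more of the probe sets tested.

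Members and lists were chosen with earlier results of these data known. Named genes were every member probe set, up to 4 called genes per list by p, or up to 2 where none was called. Planned whole promoter windows of Cad, Paics and Ppat were cut or left out where they overlap annotated genes. Alternatives covered filters, normalization, a floor, the variance prior, array weights, RNA quality, the mouse number and each mouse. Figures used matplotlib 3.10.9.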

Additional observations from a re-analysis of the deposited data

How the results depend on the processing

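Counts of calls depended on the settings, while the median difference of the synthesis genes stayed between 0.62 and 0.79 over all of them. In the reported fit 458 of 18013 tested probe sets were higher (2.54%) and 347 lower. Without the filter on dim probe sets (45037 tested), 265 were higher (0.588%) and 207 lower. In that fit 3 of 25 synthesis probe sets were called higher, and 1 gene of the other nucleotide lists was. With the stricter filter (above 6, 12714 tested), 710 were higher over all (5.58%) and 506 lower. Higher there were 5 of 9 synthesis probe sets and 6 genes of the other lists. With a trended and robust prior (18013 tested), 968 were higher (5.37%) and 762 lower. Of the synthesis probe sets 7 of 16 were higher, and of the other lists 7 genes were higher and 2 lower. With the 3′ to 5′ covariate, 5 were higher and 12 lower, with 0 synthesis probe sets and 0 other nucleotide genes in either direction, and Gmps 1455057_at turned to -0.055. Counting a gene by any of its probe sets gave 5 higher and 3 lower genes of the other lists. Among probe sets between Ifrd2 and Impdh2 on their chromosome, 0 of 39 were called in the reported fit. With the stricter filter 3 were called (710 higher and 506 lower over all, of 12714 tested). With the trended prior 3 were called (968 and 762 over all, of 18013), and with array weights 1 (578 and 441, of 18013). How many probe sets between these genes passed the stricter filter was not counted, and whether calls gather there was not tested.

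Leaving out 1 mouse gave 11 to 196 probe sets higher and 21 to 239 lower, 0 to 3 synthesis probe sets higher, and 0 to 2 higher and 0 to 1 lower genes of the other lists. With the mouse number as a block, 2 probe sets were higher and 11 lower, with 0 synthesis probe sets (11 higher at an unadjusted p under 0.05, against 11% of all tested probe sets) and 0 other nucleotide genes called. Only numbers 1 and 3 occur in both groups. Deviations from the group mean correlated at 0.02 and 0.30 between same-numbered mice, and at -0.26 to 0.26 between mice of different number. With so few mice these correlations cannot settle whether the numbers pair the mice. The labels state no pairing, and the reported fit uses none. Levels near the minimum of 4, as on the dimmer Umps and Atic probe sets, hold little signal over background.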

Other observations

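Enpp3, an ectoenzyme that splits nucleotides outside the cell, is named after its values were seen, because its 4 tested probe sets disagreed. Enpp3 was called lower on 1427302_at (-0.97 ± 0.16, SE) and 1452384_at (-0.96 ± 0.12), with limma adjusted p-values of 0.0308 and 0.0209. On 1452384_at, Enpp3 read 11.9, 11.8 and 12.1 in wild type and 10.8, 11.1 and 10.9 in double knockout mice. Its probe set 1439260_a_at stayed at -0.03 ± 0.12. The dim probe set 1427303_at differed by -1.02 ± 0.22 without a call. Nme1, a nucleoside diphosphate kinase, was called only on the dimmer of its tested probe sets. That one, 1424110_a_at, was higher at 0.59 ± 0.10 (limma adjusted p = 0.0308), and 1435277_x_at stood at 0.36 ± 0.10 without a call. The groups did not overlap on either.

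The gene table places 49 genes between the targeted Ifrd2 and Impdh2 on the same chromosome. Of their 39 tested probe sets, limma called 0, and 8 had an unadjusted p under 0.05 in either direction. Of all tested probe sets, 15.3% were higher and 11.8% lower at that p, and 4.47% were called in either direction.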
